A study of Homo sapiens with 4 samples.

Results

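Collagen chains and the proteins that modify, fold and cross-link them were represented by 132 of the 54675 probe sets on the arrays, which stand for 55 of the 19775 named genes. A probe set is a group of short probes read together for 1 transcript or for several that share sequence, and 1 gene can have several probe sets. The genes were chosen by symbol, as the 43 collagen chain genes (COL, number, A, number) and 12 processing genes, namely PLOD1, PLOD2, PLOD3, COLGALT1, SERPINH1, PCOLCE, PCOLCE2, LOX, LOXL1, LOXL2, LOXL3 and LOXL4. The rule itself uses no measured value, but it was set with earlier results of these data known.

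The cells were HEK293, an established human embryonic kidney line, grown in DMEM with 10% fetal calf serum. One group received 450 mg/dl glucose for 7 days (high glucose) and the other 100 mg/dl for the same time (low glucose), with 2 arrays each that the labels call biological replicates. The comparison addresses how transcript levels differ with the glucose supplied. Nothing in the labels says how the replicate cultures were kept apart, so p-values measure the spread between these arrays, which may be in part technical.

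Collagens are trimeric matrix proteins whose chains carry long runs of glycine, proline and hydroxyproline. In the endoplasmic reticulum prolyl and lysyl hydroxylases modify the chains, galactose and glucose are added to hydroxylysine, and the chaperone HSP47 binds the folded helix. After secretion the propeptides of fibrillar collagens are trimmed, and lysyl oxidases cross-link the molecules. Fibrillar collagens build fibrils, FACIT collagens sit on fibril surfaces, collagen VI forms beaded filaments, and collagen IV forms the sheet of basement membranes, which in the kidney surrounds glomerular capillaries and tubules.

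The collagen IV genes lie in head-to-head pairs, and the start regions of 2 pairs are shown. A gene of the first was called higher and a gene of the second lower. The pair of COL4A3 and COL4A4 is not shown, though COL4A4 was also called lower. All sequences are from the RefSeq promoter table of GRCh38.p14, in which 42 of the 55 genes had an entry. Between the starts of COL4A2 and COL4A1 lie 126 bases, at chr13:110307158-110307283, written on the plus strand in the direction of COL4A2, with capitals for CCAAT. The COL4A6 window is the 250 bases before its start, at chrX:108439459-108439708 on the minus strand. Capitals mark the 121 bases that COL4A5's window also covers on the other strand, and 379 bases separate these starts. CCAAT is not marked in this window, where it occurs 3 times over both strands, as it does 2 times in the window of COL4A5.
COL4A2-COL4A1: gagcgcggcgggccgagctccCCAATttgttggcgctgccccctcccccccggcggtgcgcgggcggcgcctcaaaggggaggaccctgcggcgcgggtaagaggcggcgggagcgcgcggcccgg
COL4A6: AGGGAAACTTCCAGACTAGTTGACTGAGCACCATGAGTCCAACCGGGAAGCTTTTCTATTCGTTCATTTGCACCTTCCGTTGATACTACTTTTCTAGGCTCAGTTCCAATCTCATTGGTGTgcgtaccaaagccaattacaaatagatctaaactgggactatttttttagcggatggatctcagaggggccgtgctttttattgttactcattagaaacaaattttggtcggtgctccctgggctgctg

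Windows of the 250 bases before the start are shown for 3 more genes that differed, COL6A2 at chr21:46097862-46098111 on the plus strand, COL12A1 at chr6:75206054-75206303 on the minus strand and SERPINH1 at chr11:75562003-75562252 on the plus strand. Capitals mark TATAAA (the TATA box) in COL6A2, GGAATG (the core read by TEAD factors) in COL12A1 and GAANNTTC (a heat shock element core) in SERPINH1.
COL6A2: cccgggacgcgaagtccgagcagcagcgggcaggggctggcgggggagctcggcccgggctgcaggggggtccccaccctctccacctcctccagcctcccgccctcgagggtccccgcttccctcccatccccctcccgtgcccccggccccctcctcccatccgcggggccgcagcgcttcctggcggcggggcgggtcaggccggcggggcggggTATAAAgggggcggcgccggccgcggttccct
COL12A1: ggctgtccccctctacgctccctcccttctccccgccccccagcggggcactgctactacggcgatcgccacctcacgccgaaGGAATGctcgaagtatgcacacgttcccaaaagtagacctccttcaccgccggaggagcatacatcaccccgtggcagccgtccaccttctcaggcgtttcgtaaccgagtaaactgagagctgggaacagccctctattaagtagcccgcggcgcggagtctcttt
SERPINH1: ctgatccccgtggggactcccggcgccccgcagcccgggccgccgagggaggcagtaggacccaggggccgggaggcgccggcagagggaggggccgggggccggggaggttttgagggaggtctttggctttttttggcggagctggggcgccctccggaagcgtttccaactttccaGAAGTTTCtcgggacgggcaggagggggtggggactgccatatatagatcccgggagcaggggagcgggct

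These motifs were searched on both strands and each was counted on its own, whether or not it overlapped another. Of all 35093 windows, TATAAA occurred in 10.7%, CCAAT in 32.0%, GGAATG in 11.9% and GAANNTTC in 5.78%. Of the 58 windows of collagen genes, TATAAA occurred in 7, CCAAT in 14, GGAATG in 4 and GAANNTTC in 6. A further motif searched but not marked, CCACG, occurred in 33.5% of all windows and in 27 of the 58. No test compared these shares. A match describes the letters only and does not show that a factor binds there.

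The deposited signals are linear intensities that had been scaled to 1 trimmed mean per array, at 200.02 units, and the array medians were 33.3 and 33.8 in high glucose, against 38.7 and 36.7 in low glucose. Across 27307 probe sets, which are not independent, Pearson's r was 0.988 between the high glucose arrays, 0.985 between the low glucose arrays and 0.925 to 0.928 between groups. The 24 probe sets for bacterial poly-A RNA added before labelling were higher in high glucose by a median of 1.94 log2 units, and 1 collagen probe set, that of COL9A3, rose by more. The 6 ribosomal RNA probe sets were higher by a median of 1.73. For the 18 hybridisation controls the median difference was -0.34. Their array medians were 486 and 875 in high glucose, against 869 and 891 in low glucose, so high glucose replicate 1 stood apart. The 3′/5′ signal ratios, a measure of RNA integrity, were 1.03 to 1.23 (GAPDH) and 1.17 to 1.36 (ACTB). The part of these controls in the differences below was not tested. Of 8 HEK293 markers 7 passed the filter on low signals, and the line's neurofilament gene NEFM did not. At limma adjusted p under 0.05, LHX1 (1.45 log2 units), KRT8 (1.06), KRT18 (1.07) and CDH2 (0.54) were higher in high glucose. VIM was lower (-0.91), and PAX2 and NEFL did not pass the test. All 6 fibroblast markers stayed below it, with summed signals of 97.3 to 98.6 in high glucose and 75.5 to 152 in low glucose, and no marker was at 0. Of 4 endothelial markers 1 passed, PECAM1, and of 3 blood cell markers none did.

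The filter kept the brighter part of the probe sets, with a mean log2 signal of at least the median, which is 32.9 signal units. It passed 59 of the 132 collagen probe sets and 33 of the 55 genes. All 12 processing genes were among them, against 21 of 43 chain genes. Each gene is described first by its brightest probe set, the one with the highest mean over the 4 arrays, and then by its others.

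Of the 59 probe sets 29 differed between high and low glucose, 15 higher and 14 lower (limma, adjusted p under 0.05). That is 49.2% of them, where 50.4% of all probe sets past the filter differed, 23.1% higher and 27.2% lower. At least 1.5-fold differences were found in 21, 11 higher and 10 lower, beside a background of 29.7%, 12.9% higher and 16.8% lower. In 5 of the 59 the arithmetic mean of 1 group was under 32.9 units, so that they passed the filter only through the other group. All 5 were called, 3 higher (COL9A3 and 2 probe sets of COL12A1) and 2 lower (COL21A1 and 1 of COL11A2). The sizes of these differences rest on signals not shown to be above background, and the other 54 gave 12 higher and 12 lower calls. On the log2 scale of the filter PCOLCE was also under it in low glucose (14.2 and 69.8 units), and it was not called. By the brightest probe set 19 of 33 genes differed, 9 higher and 10 lower, beside a background of 56.4% of genes, 23.8% higher and 32.6% lower. Of the genes 11 differed at least 1.5-fold, 5 higher and 6 lower, beside a background of 29.9%, 10.8% higher and 19.1% lower. The median log2 difference, high minus low glucose, was 0.16 over the 33 genes and -0.10 over all genes. The shares called at adjusted p under 0.05 were thus close to the background. With at least 1.5-fold differences the shares were 35.6% of probe sets, beside 29.7%, and 33.3% of genes, beside 29.9%. No test compared these shares.

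Direction depended in part on the scaling. After centring each array on its median, which moved the median difference of all probe sets up by 0.17 log2 units, 23 collagen probe sets were higher and 10 lower, so that 69.7% of the calls were higher, against 51.7% with the deposited scaling. Over all probe sets that share was 63.0% after centring and 45.9% with the deposited scaling, so the shift was general. Quantile normalization gave 60.7% among collagen calls (51.4% over all) and cyclic loess 59.3% (50.2% over all). All 11 genes with differences of 1.5-fold or more kept their sign under each of the 3 other scalings, though the calls of COL4A4 and LOXL3 were lost. In RNA from whole cultures, a change in the number of cells that express a gene and a change in RNA per cell cannot be told apart.

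**Figure D1:**
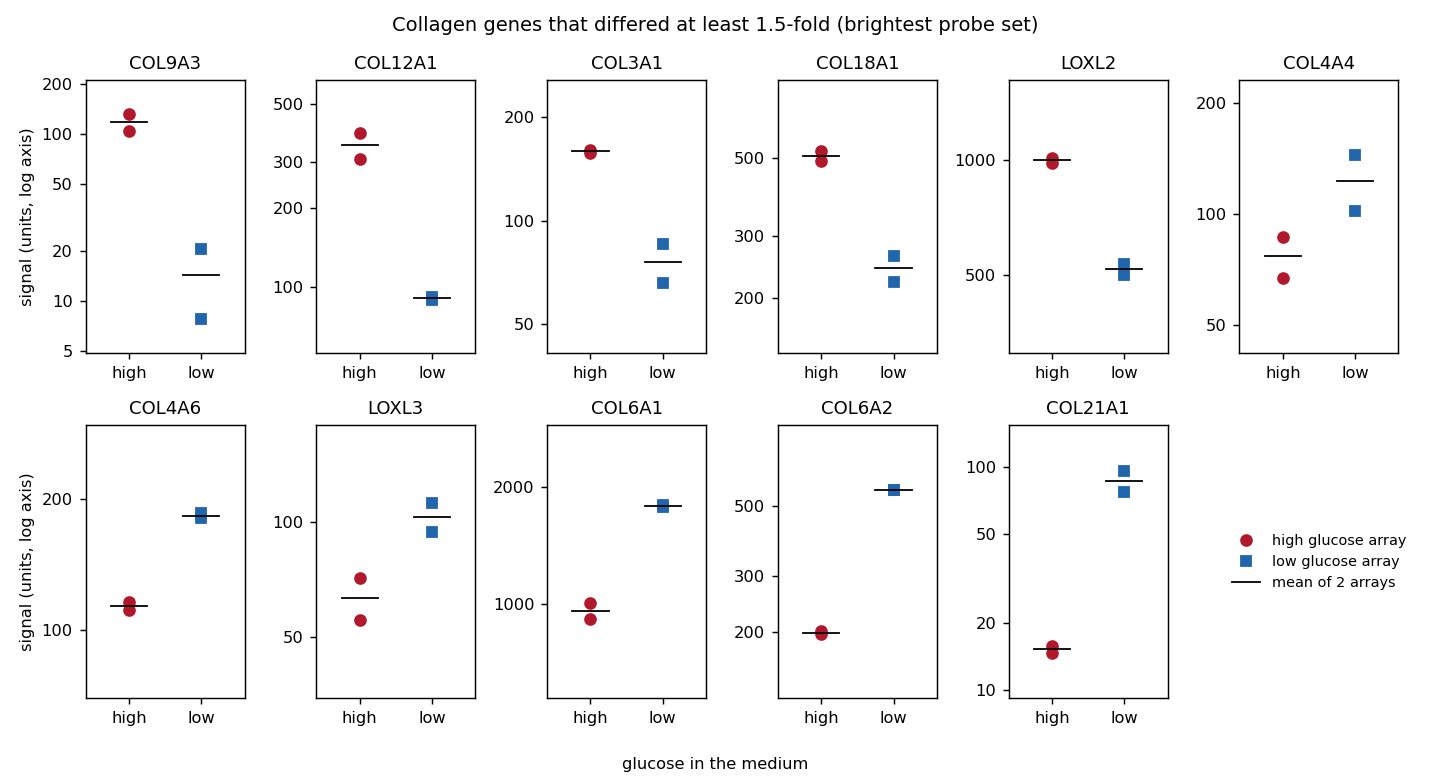
Signal on each array (log axis, in signal units, a scale for each gene) of the 11 collagen and processing genes that differed at least 1.5-fold in their brightest probe set, with high glucose left of low glucose and a line at the mean of 2 arrays. In each panel both points of 1 group lie above both points of the other, which choosing genes by call and size makes likely. The low glucose points of COL9A3 and the high glucose points of COL21A1 lie under the filter of 32.9 units.

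The plot of signals by array also shows which replicates were far apart, as those of COL9A3 in low glucose and of COL4A4 in both groups were.

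Among FACIT and related collagens, 4 of 10 genes passed the filter, of which 2 rose, 1 fell and 1 did not pass the test. COL9A3 encodes a chain of collagen IX, known from the surface of cartilage fibrils. Its signal was 105 and 132 units on the high glucose arrays and 7.84 and 20.7 on the low glucose arrays. Both high values were well above both low ones, and the mean in low glucose was under the filter. The difference was 3.21 ± 0.47 log2 units (SE, limma adjusted p = 0.00121). Its size rests on which low glucose array is used, being 2.51 without replicate 1, 3.91 without replicate 2, and 2.18 when 16 units were added to each signal.

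The 5 chondrocyte markers, of which 2 passed the filter, had a summed signal of 289 to 352 in high glucose and 427 to 456 in low glucose, the opposite order to COL9A3. Of these, COMP, which stayed below the filter, was higher on both high glucose arrays, and the other 4 were lower there. SOX9, the transcription factor that directs cartilage collagen genes, supplied most of this summed signal on every array, so the sum largely restates it. SOX9 stood at 218 and 256 in high glucose, against 315 and 303 in low glucose, and fell by 0.39 ± 0.11 log2 units (limma adjusted p = 0.0220). COL9A2, which encodes a partner chain of COL9A3 in collagen IX, had 68.1 and 74.7 units in high glucose, against 64.5 and 62.5 in low glucose. Its log2 difference of 0.17 ± 0.21 did not pass (limma adjusted p = 0.534), and COL9A1, the third chain of that collagen, stayed below the filter.

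COL12A1, a FACIT collagen of tendon and other dense connective tissue, had 307 and 387 units in high glucose, against 89.5 and 91.7 in low glucose. The low glucose arrays were nearly equal and well below both high glucose arrays. It rose 3.81-fold, or 1.93 ± 0.15 log2 units (limma adjusted p = 6.39e-05). Of its other probe sets, 231766_s_at rose by 1.90 ± 0.32 and 231879_at by 1.19 ± 0.32, but their low glucose means of 25.7 and 28.4 units were under the filter, while 234951_s_at did not pass, at -0.52 ± 0.29 (limma adjusted p = 0.166). With the gene's probe sets averaged, an alternative added after seeing the data, the difference was 1.12.

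COL21A1, a small FACIT-like chain, went the other way. Signals were 14.6 and 15.8 units in high glucose, against 96.6 and 77.4 in low glucose, so the high glucose level lay below the filter. It fell by 2.51 ± 0.30 log2 units (limma adjusted p = 0.000472). With 16 units added to each signal it fell by 1.72. Both COL9A3 and COL21A1 are measured by 1 probe set past the filter.

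Collagen VI was lower in high glucose in both chains that could be measured. COL6A1 and COL6A2 encode chains of the beaded filaments that surround most cells, and they are neighbours on chromosome 21. COL6A2 had 196 and 200 units in high glucose, against 561 and 564 in low glucose. Replicates were nearly equal and the groups far apart. It fell by 1.505 ± 0.08 log2 units, or was 2.84-fold lower (limma adjusted p = 1.73e-05). This rests on 1 probe set, since 213290_at stood at 80.2 and 104 units in high glucose, against 94.4 and 85.4 in low glucose, and its difference of 0.02 ± 0.20 did not pass (limma adjusted p = 0.940). The averaged probe sets gave -0.74.

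COL6A1 had 915 and 1004 units in high glucose, against 1800 and 1778 in low glucose. The groups were far apart beside the spread of replicates, and it fell by 0.90 ± 0.07 log2 units, or was 1.87-fold lower (limma adjusted p = 5.91e-05). A further probe set, 212091_s_at, fell by 0.63 ± 0.09, and the other 2 stood at -0.20 and -0.55 without passing. With probe sets marked as shared between transcripts (_x_at and _s_at) left out, COL6A1 stood at -0.55 (limma adjusted p = 0.0760), and the averaged probe sets gave -0.57. COL6A3, which encodes the partner chain of COL6A1 and COL6A2 in most tissues, stayed between 2.19 and 23.0 units. COL6A5, COL6A6 and the collagen VI-like COL28A1 also had no probe set past the filter, and their signals lay between 0.430 and 22.8 units.

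In collagen IV, COL4A1 was called higher and COL4A4 and COL4A6 lower in high glucose, and the difference between these genes was not tested. COL4A1 and COL4A2, the chains of nearly all basement membranes, share the interval printed above. COL4A1 had 800 and 745 units in high glucose, against 582 and 556 in low glucose, and rose by 0.44 ± 0.07 log2 units (limma adjusted p = 0.00177). Its other probe set, 211981_at, had 345 and 253 units in high glucose, against 304 and 348 in low glucose and did not pass, and the averaged probe sets gave 0.15 (limma adjusted p = 0.233). COL4A2 had 912 and 876 units in high glucose, against 792 and 812 in low glucose. Its difference of 0.16 ± 0.06 did not pass (limma adjusted p = 0.0701), and its further probe set was at 0.01. COL4A2 was called higher after median centring, at 0.33 (limma adjusted p = 0.00927).

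COL4A5 and COL4A6, chains of more restricted basement membranes, among them those of the glomerulus and of Bowman's capsule, lie on the X chromosome with the overlapping windows shown above. COL4A6 had 111 and 116 units in high glucose, against 181 and 185 in low glucose. It fell by 0.69 ± 0.13 log2 units, or was 1.62-fold lower (limma adjusted p = 0.00427), and its other probe set fell by 0.87 ± 0.23. COL4A5 had 296 and 212 units in high glucose, against 372 and 317 in low glucose. The groups did not overlap, but the replicates were far apart and the difference of -0.45 ± 0.17 did not pass (limma adjusted p = 0.0542). It passed without high glucose replicate 1, at -0.70 (limma adjusted p = 0.00637), without low glucose replicate 2 (adjusted p = 0.0319) and with 1 probe set per gene (adjusted p = 0.0474).

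COL4A4, a chain of the mature glomerular basement membrane, had 86.8 and 67.2 units in high glucose, against 102 and 145 in low glucose. It was 1.59-fold lower, a fall of 0.67 ± 0.24 log2 units just past the threshold (limma adjusted p = 0.0484), and the call was lost under 8 of the alternatives, at -0.42 without low glucose replicate 2. All 7 probe sets of COL4A3, its partner, stayed below the filter, between 0.637 and 47.3 units. Thus of 6 collagen IV genes, 1 rose, 2 fell, 2 did not pass the test and 1 was not measured above the filter.

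Fibrillar collagens were measured in 7 of 11 genes, and 2 rose, 1 fell and 4 did not pass by the brightest probe set. COL3A1, the chain of the reticular fibrils of vessel walls and organs, had 161 and 158 units in high glucose, against 66.0 and 85.6 in low glucose. Both groups were separate, and it rose 2.12-fold, or 1.08 ± 0.19 log2 units (limma adjusted p = 0.00252). Its other probe sets gave 0.44 ± 0.22 and 0.17 ± 0.32 and did not pass (limma adjusted p = 0.127 and 0.677), and their average with the brightest was 0.57.

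COL1A1, a chain of the main collagen of bone, skin and tendon, gave opposite answers in its probe sets. All those past the filter are of the _s_at or _x_at kind, marked as shared between transcripts. The brightest, 1556499_s_at, had 319 and 313 units in high glucose, against 228 and 204 in low glucose, a rise of 0.55 ± 0.10 log2 units (limma adjusted p = 0.00348). Probe set 217430_x_at had 65.2 and 80.8 units in high glucose, against 148 and 140 in low glucose, and fell by 0.99 ± 0.18 (limma adjusted p = 0.00373). In both the groups were separate, so the disagreement is larger than the replicate spread. A further one, 202310_s_at, stood at 0.43 ± 0.16 (limma adjusted p = 0.0630), and the average of all was -0.00143 (limma adjusted p = 0.993), so that the gene as a whole has no settled direction. COL1A2, the partner chain of collagen I, stayed between 0.818 and 12.3 units.

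COL5A1, a chain that controls the width of collagen I fibrils, also had probe sets called in both directions. The brightest, 212488_at, had 703 and 803 units in high glucose, against 884 and 888 in low glucose and fell by 0.24 ± 0.08 log2 units (limma adjusted p = 0.0377). Probe set 203325_s_at had 1091 and 1076 units in high glucose, against 454 and 451 in low glucose. It rose 2.39-fold, or 1.26 ± 0.06 (limma adjusted p = 1.24e-05), with replicates nearly equal. Probe set 212489_at rose by 0.71 ± 0.12, and the average of all 3 was 0.58 (limma adjusted p = 0.000529), the reverse of the brightest. The call of the brightest was lost under 6 of the alternatives, at -0.14 without high glucose replicate 1 and at -0.07 after median centring.

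Its partner COL5A2 had 161 and 162 units in high glucose, against 145 and 117 in low glucose, and the difference of 0.31 ± 0.15 did not pass (limma adjusted p = 0.137). It was called higher after quantile normalization (0.43), after median centring (0.48) and with its probe sets averaged (0.72). The dimmer probe set of COL5A2, 221730_at, had 74.6 and 97.1 units in high glucose, against 44.0 and 34.2 in low glucose, and rose by 1.13 ± 0.26 (limma adjusted p = 0.00993). COL2A1, the main cartilage collagen, stood at 0.21 and 0.30 in its 2 probe sets and neither passed. COL11A2 stood at -0.44 ± 0.17 without passing, while its dimmer 213870_at fell by 0.86 ± 0.28 (limma adjusted p = 0.0377), with a high glucose mean of 28.02 ± 1.55 units, below the filter, and 50.8 ± 0.508 in low glucose (SD, n = 2). With no intensity trend the brightest probe set of COL11A2 was called lower (-0.44), as was the average of its probe sets (-0.65). COL27A1 stood at -0.30, 0.05 and -0.58 in 3 probe sets, none of which passed.

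**Figure D2:**
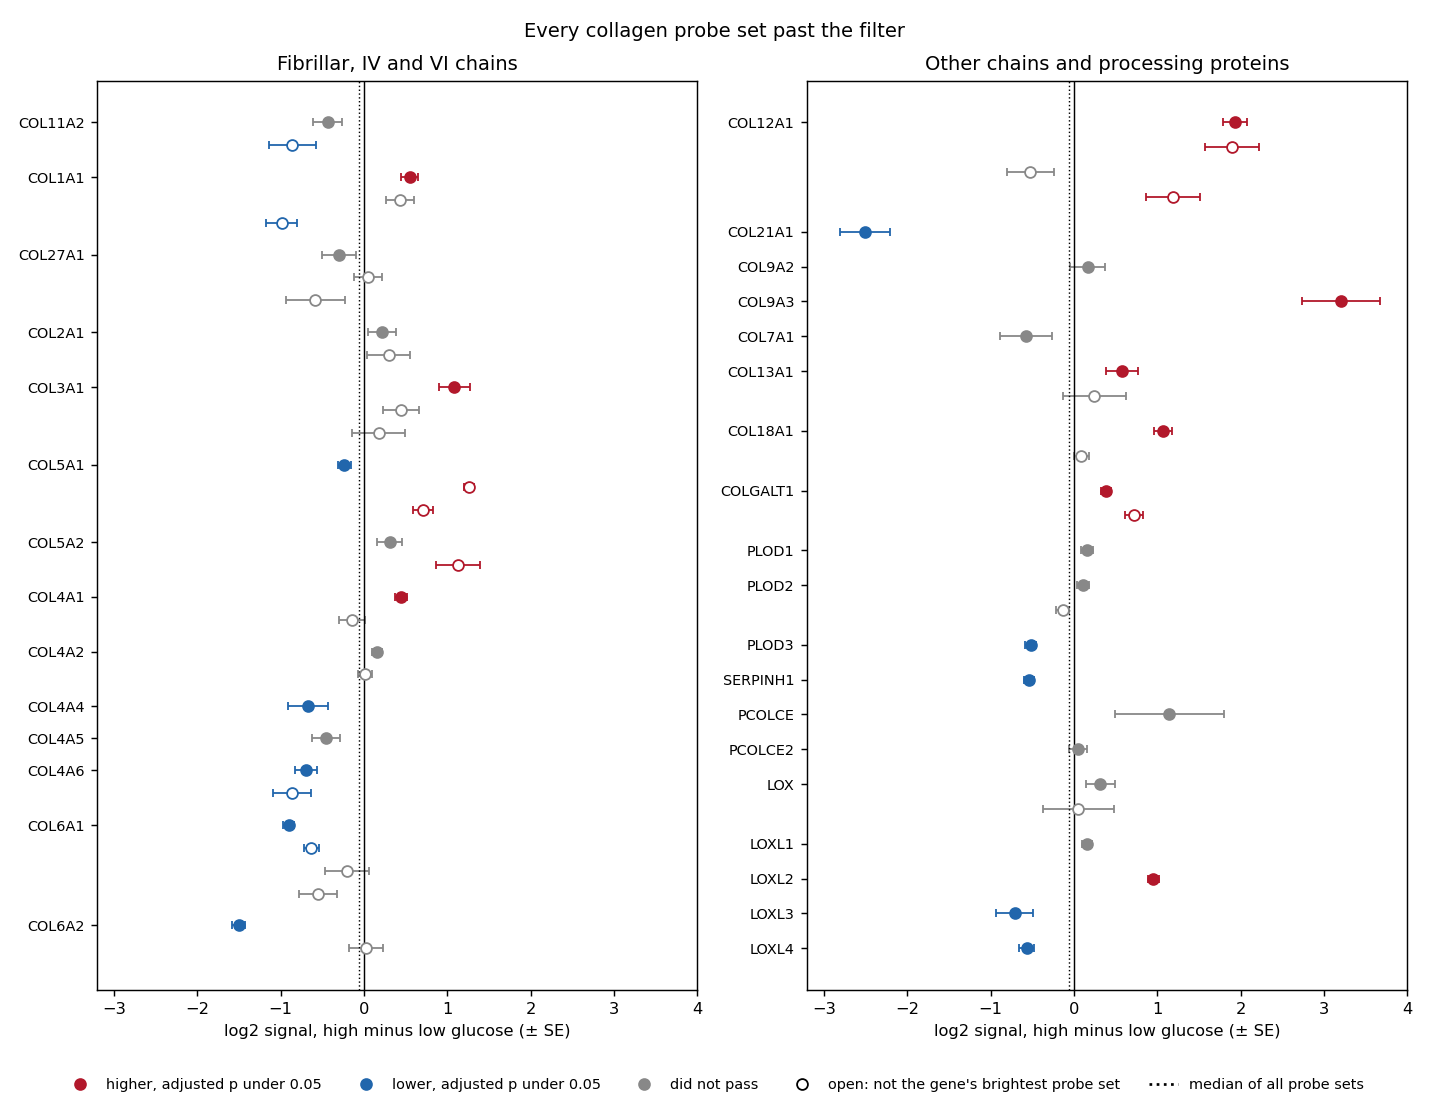
Log2 difference in signal, high minus low glucose, with its SE, for each of the 59 collagen probe sets past the filter, coloured by whether limma called it higher, lower or neither, with filled points for a gene's brightest probe set and a dotted line at the median of all probe sets, -0.06. COL1A1 and COL5A1 have points called on both sides of 0, while the called points of COL6A1, COL6A2 and COL4A6 all lie left of it.

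The plot of every probe set shows how far probe sets of 1 gene differed. In 18 genes more than 1 probe set passed the filter. Of these, 2 (COL1A1 and COL5A1) had calls in opposite directions, 2 (COL4A6 and COLGALT1) had every probe set called the same way, 5 had none called, and 9 had some called in 1 direction and others not called.

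The multiplexin COL18A1 and the transmembrane COL13A1 were higher in high glucose. COL18A1 is a basement membrane chain whose end fragment is endostatin. It had 523 and 492 units in high glucose, against 264 and 222 in low glucose, with separate groups, and rose 2.10-fold, or 1.07 ± 0.10 log2 units (limma adjusted p = 0.000193). Its other probe set, 209082_s_at, had 299 and 332 units in high glucose, against 301 and 291 in low glucose, and its groups overlapped (0.09 ± 0.09, limma adjusted p = 0.452), and the average of both was 0.58. COL13A1, a cell-surface collagen of the neuromuscular junction, had 116 and 120 units in high glucose, against 71.5 and 88.3 in low glucose, and rose by 0.58 ± 0.19 (limma adjusted p = 0.0364). Its call was lost without high glucose replicate 1 or 2, without low glucose replicate 1, with no filter and with its probe sets averaged. COL7A1, which forms the anchoring fibrils of skin, had 30.8 and 45.1 units in high glucose, against 64.1 and 48.1 in low glucose, a difference of -0.57 ± 0.31 that did not pass (limma adjusted p = 0.164).

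The remaining chain genes had no probe set past the filter, and their low signals carry no statement of absence. Among them the fibrillar COL11A1, COL24A1 and COL5A3 lay between 0.624 and 25.1 units. The FACIT and related genes COL14A1, COL16A1, COL19A1, COL20A1, COL22A1 and COL9A1 lay between 0.452 and 64.6. The network-forming COL8A1, COL8A2 and COL10A1 lay between 0.578 and 35.2, the transmembrane COL23A1 and COL25A1 between 1.81 and 45.6, and COL15A1 and COL26A1 between 0.580 and 38.5.

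**Figure D3:**
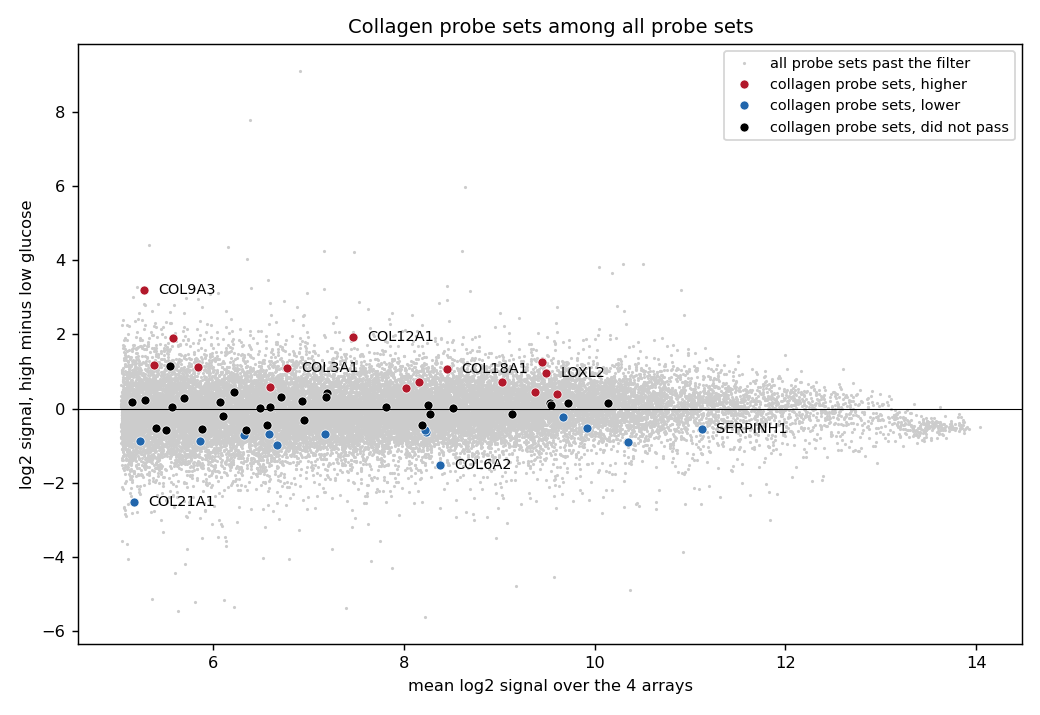
Log2 difference in signal, high minus low glucose, against the mean log2 signal over the 4 arrays for all 27307 probe sets past the filter (grey), with the 59 collagen probe sets coloured by limma's call. Collagen probe sets lie at low and middle signal on both sides of 0, the brightest being SERPINH1, and the highest and lowest are COL9A3 at 3.21 and COL21A1 at -2.51.

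The plot against mean signal places both extreme collagen genes, COL9A3 and COL21A1, near the filter, and COL6A2, COL12A1, COL18A1 and LOXL2 at higher signal.

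Of the enzymes that modify collagen lysines, 1 rose, 1 fell and 2 did not pass. PLOD3, the lysyl hydroxylase that can also add glucose and galactose, had 821 and 800 units in high glucose, against 1116 and 1206 in low glucose, and fell by 0.52 ± 0.07 log2 units, or was 1.43-fold lower (limma adjusted p = 0.000622). COLGALT1, which adds galactose to hydroxylysine, had 891 and 896 units in high glucose, against 684 and 685 in low glucose. It rose by 0.38 ± 0.06 (limma adjusted p = 0.00163), and its other probe set rose by 0.72 ± 0.11. PLOD1, which hydroxylates lysines in the helix, stood at 0.16 ± 0.07, and PLOD2, which hydroxylates those in the telopeptides, at 0.11 ± 0.07 and, in its other probe set, -0.13 ± 0.08. None of these 3 passed, and both genes were called higher after median centring.

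SERPINH1, the collagen chaperone HSP47, had 1794 and 1897 units in high glucose, against 2669 and 2708 in low glucose. The groups were well apart, and it fell by 0.54 ± 0.06 log2 units, or was 1.46-fold lower (limma adjusted p = 0.000351). The window before its start, printed above, holds 1 match to the heat shock element core. PCOLCE and PCOLCE2 enhance the removal of the C-propeptide of fibrillar procollagens. PCOLCE had 66.1 and 73.4 units in high glucose, against 14.2 and 69.8 in low glucose, so that 1 low glucose array decides it. Its difference of 1.15 ± 0.66 did not pass (limma adjusted p = 0.183), and it was -0.00326 without low glucose replicate 1 and 2.30 without replicate 2. PCOLCE2 stood at 0.05 ± 0.10 and did not pass (limma adjusted p = 0.720).

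The lysyl oxidases, which oxidise lysines so that collagens and elastin become cross-linked, split by member. LOXL2, which cross-links collagen IV among other substrates, had 983 and 1016 units in high glucose, against 535 and 500 in low glucose, and rose 1.93-fold, or 0.95 ± 0.07 log2 units (limma adjusted p = 4.85e-05). LOXL4 had 255 and 236 units in high glucose, against 357 and 370 in low glucose, and fell by 0.57 ± 0.09, or was 1.48-fold lower (limma adjusted p = 0.00190). LOXL3 had 71.2 and 55.2 units in high glucose, against 94.4 and 112 in low glucose, and fell by 0.71 ± 0.22, or was 1.64-fold lower (limma adjusted p = 0.0309). The LOXL3 call was lost under 5 alternatives, among them each of the 3 other scalings and leaving out high or low glucose replicate 2. In all 3 genes the groups were separate. How often the groups are separate over all probe sets was not computed, so separation adds no support to these calls.

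The founding member LOX had 110 and 125 units in high glucose, against 89.5 and 99.5 in low glucose, with a difference of 0.32 ± 0.17 that did not pass (limma adjusted p = 0.166). Its other probe set overlapped between groups, with 66.2 and 35.2 units in high glucose, against 33.5 and 64.9 in low glucose. LOXL1, known for cross-linking elastic fibres, had 1234 and 1154 units in high glucose, against 1069 and 1072 in low glucose, and its 0.16 ± 0.06 did not pass (limma adjusted p = 0.0705). Both LOX and LOXL1 were called higher after median centring, and LOXL1 also with the stricter filter.

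Other genes of collagen biosynthesis, breakdown and binding were mostly lower in high glucose. Of 46 with a probe set, 31 passed the filter, of which 4 rose and 19 fell, so that 74.2% differed, and their median log2 difference was -0.53. Over all genes 56.4% differed, 23.8% higher and 32.6% lower, with a median of -0.10, and the list was chosen with earlier results known. Of 9 measured genes of prolyl hydroxylation 2 rose and 7 fell, counts that no test set against those shares. P4HA2, a catalytic subunit of prolyl 4-hydroxylase, had 384 and 372 units in high glucose, against 1636 and 1505 in low glucose, a 4.15-fold lower level (-2.05 ± 0.07, limma adjusted p = 2.93e-06). P4HB, the enzyme's other subunit and a disulfide isomerase, averaged 5464 ± 239 units in high glucose and 10910 ± 203 in low glucose (SD, n = 2), and fell by 1.00 ± 0.07. CRTAP, a partner of prolyl 3-hydroxylase, averaged 1503 ± 76.5 units in high glucose and 3214 ± 128 in low glucose (SD, n = 2), and fell by 1.10 ± 0.07. The 2 that rose, named after their values were seen, were P3H2 by 0.56 ± 0.07 and P3H4 by 0.25 ± 0.08. The P3H4 call was lost under 6 of the alternatives, among them leaving out any 1 array.

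Of 10 further folding and export genes 2 rose, 3 fell and 5 did not pass. TMEM38B, an ion channel of the endoplasmic reticulum, rose by 0.54 ± 0.06 log2 units (limma adjusted p = 0.000410), and KLHL12, a ubiquitin ligase adaptor for large transport carriers, named after its value was seen, rose by 0.40 ± 0.07. With each gene's probe sets averaged TMEM38B stood at 0.22, and KLHL12 at 0.26 without its call. MIA3 (TANGO1), which loads procollagen into carriers, fell by 0.74 ± 0.10 (limma adjusted p = 0.000963), and PEPD, the prolidase that recycles proline from degraded collagen, fell by 0.77 ± 0.11 (limma adjusted p = 0.00117). MIA3 stood at -0.17 and lost its call without _x_at and _s_at probe sets. Of 3 propeptide-cleaving proteinases only ADAMTS3, a procollagen N-proteinase, differed, and fell by 0.77 ± 0.16 (limma adjusted p = 0.00579).

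The 3 collagen-degrading proteases past the filter were called lower, as were 32.6% of all genes. MMP9 had 68.9 and 63.3 units in high glucose, against 161 and 140 in low glucose, a fall of 1.18 ± 0.18 log2 units (limma adjusted p = 0.00135). MMP2, the other gelatinase, fell by 0.84 ± 0.15 and the membrane-bound MMP14 by 0.74 ± 0.18, which lost its call without high glucose replicate 1. The 5 collagen receptors past the filter were also called lower, beside the same 32.6%, and 2 of the 3 named lost the call under some alternatives. DDR2, a receptor tyrosine kinase for fibrillar collagens, had 68.2 and 65.9 units in high glucose, against 596 and 562 in low glucose, a level 8.64-fold lower in high glucose (-3.11 ± 0.11, limma adjusted p = 3.62e-06).

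The integrin subunits ITGA1 and ITGB1, which pair in a collagen receptor, fell by 0.64 ± 0.17 and 0.28 ± 0.07 (limma adjusted p = 0.0153 and 0.0169). ITGA1 lost its call when replicate 1 of either group was left out. ITGB1 lost its call after median centring (-0.11), without _x_at and _s_at probe sets (-0.07), with no intensity trend, and without low glucose replicate 1 or 2. FMOD, the 1 small collagen-binding proteoglycan past the filter, also named after its value was seen, stood at 0.18 ± 0.34 and did not pass (limma adjusted p = 0.682), and it changed sign with the array left out.

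**Figure D4:**
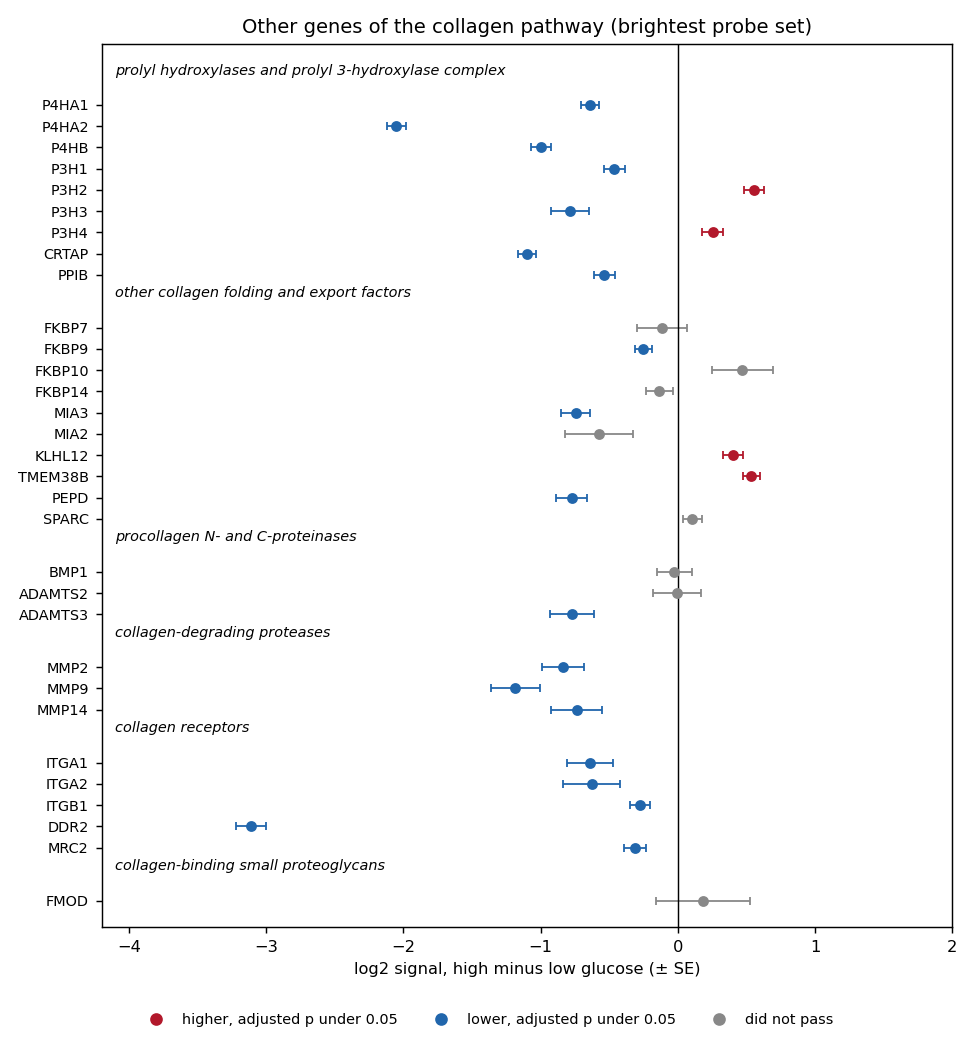
Log2 difference in signal, high minus low glucose, with its SE, in the brightest probe set of the 31 other collagen pathway genes past the filter, grouped by role and coloured by limma's call. The 5 receptors and 3 proteases all lie left of 0, with DDR2 at -3.11, while P3H2, P3H4, KLHL12 and TMEM38B were called to its right.

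The plot of other pathway genes shows P4HA2 and DDR2 apart from the remaining genes, which lie between -1.18 and 0.56.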

How the data were processed

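Biotin-labelled RNA from 4 HEK293 cultures was hybridised to single-colour Affymetrix expression arrays, per the labels' protocols. The values are linear signal intensities per probe set as deposited by the authors, made with GCOS, per the submitters' processing notes, with no version given. The sources used here give neither a genome build nor further steps, and detection calls were not used. Deposited intensities were log2-transformed with no pseudocount and no rescaling. After leaving out 62 control probe sets, the 27307 of 54613 others with a mean log2 signal at or above the median (32.9 units) were kept. A limma 3.58.1 model in R 4.3.3 (lmFit, eBayes with intensity trend, no covariates) set high against low glucose on all kept probe sets, and two-sided p-values were adjusted by Benjamini-Hochberg over all of them, with a threshold of 0.05. The number of arrays limits the precision. Errors are SEs beside log2 differences and SDs beside mean signals.

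Probe sets were named from GEO's platform annotation where it gives 1 gene (41097 probe sets). COLGALT2 and DDR1 had no such probe set and were not analysed here. Text values cover every collagen gene past the filter, in full for differences of at least 1.5-fold or opposite calls, and the 3 smallest p per role among called other pathway genes. Genes, lists and tests were chosen with earlier results of these data known. Alternatives covered scaling, the filter, a pseudocount, the intensity trend, probe set choice, a replicate block and leaving out each array. The average of a gene's probe sets was added after seeing the data. The fit was also run on simulated data in which few probe sets were changed. Many more differed here, so that run does not give the error rates for these data.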

Additional observations from a re-analysis of the deposited data

How the results depend on the processing

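Collagen genes past the filter and the other pathway genes named were recomputed under each alternative. Of 508 values for the 35 that passed the test, 463 kept direction and call, 42 lost the call and 3 reversed. Of 216 values for the 15 that did not pass, 17 passed and 5 reversed. Averaging each gene's probe sets, an alternative chosen after seeing the data, reversed COL1A1 (-0.00143), COL5A1 (0.58) and PLOD2 (-0.0125). Leaving out _x_at and _s_at probe sets reversed COL6A2 (0.0212) because another probe set then stood for it. PCOLCE reversed without low glucose replicate 1 (-0.00326 to 2.30 over arrays left out) and PCOLCE2 without high glucose replicate 1 (-0.00725 to 0.105), and FMOD without replicate 2 of either group (-0.11 to 0.48). Median centring gave 23 higher collagen probe sets and a median difference of 0.26, and cyclic loess a median of 0.15. With no filter the median over 132 probe sets was -0.24. The stricter filter, at 100 units, left 34 collagen probe sets with a median of 0.13. Of these 20 were called, 11 higher and 9 lower, beside 61.9% of all probe sets. With 1 probe set per gene 7049 were called in all, 9 collagen genes were higher and the median was 0.16. Without _x_at and _s_at probe sets 8032 were called in all, among them 12 of collagen genes (5 higher, 7 lower, median 0.0212) for 9 genes, with fewer probe sets tested. Leaving out 1 array at a time gave 24 to 27 called collagen probe sets, beside 29 with all arrays, and 11167 to 12381 calls in all. Arrays with the same number did not deviate together across 27307 probe sets (r = 0.00773), so the numbers are not shown to pair cultures, and the replicate block gave 28 called collagen probe sets and 13842 in all, with COL4A4 not called (adjusted p = 0.0508) and COL4A5 called (adjusted p = 0.00876). Signals near or below 32.9 units limit COL9A3, COL21A1 and the 22 genes below the filter.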
